A study of Mus musculus with 8 samples.

Results

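Type I interferon-stimulated antiviral genes were followed across monocytes and macrophages sorted from the mouse colon and spleen. The list named 41 genes, taken by single gene symbol from the array annotation, with the probe set of highest mean where a gene had several. Of these, 38 were measured among the 19938 genes with a single-symbol probe set, each by 1 probe set. Oas1g and Isg15 lay only on probe sets that also name another gene (Oas1a and Gm9706), and Ifi44 had no probe set listed, so these 3 were left out. All 38 passed the brightness filter of the tests, which asked that 2 or more arrays reach their own median. Of them 37 did so in all 8 arrays, and Mx2 in 6.

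All groups came from Cx3cr1gfp/+ mice on a C57BL/6 background, in which 1 Cx3cr1 allele carries a green fluorescent reporter, and each of the 8 groups was 1 Affymetrix array of RNA from sorted cells. The labels give neither an age nor the number of mice per sample. At steady state there were 3 colonic CX3CR1hi arrays, labelled resident macrophages (female), monocyte-reconstituted resident macrophages (female) and F4/80hi (male), and 1 array of splenic Ly6Chi monocytes labelled female. At day 4 of colitis caused by dextran sodium sulphate, a polymer that injures the gut lining, there was 1 male array each of colonic CX3CR1hi F4/80hi cells, colonic CX3CR1int Ly6Chi cells, colonic CX3CR1int Ly6Clo cells and splenic Ly6Chi monocytes. The labels do not say how the reconstituted cells were obtained.

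Type I interferons act through the receptor pair encoded by Ifnar1 and Ifnar2 and the kinases Jak1 and Tyk2, which activate a complex of STAT proteins and IRF9 that binds interferon-stimulated response elements in promoters. The genes switched on in this way detect viral nucleic acid, block translation, degrade RNA, starve viruses of nucleotides or limit the signal itself. In myeloid cells a low tonic signal keeps many of these genes expressed without infection, and circulating monocytes that enter the gut lose their Ly6C as they turn into CX3CR1hi macrophages.

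To show what such an element looks like in the genes measured here, 300-base RefSeq promoter windows (GRCm38.p6, 250 bases before and 50 after a start) were searched on both strands for GAAA followed by any 2 bases and GAAA, which match such an element. Windows existed for 28 of the 38 members, and 11 of them (39.3%) held a match, against 1079 of 27025 genes with a window (3.99%). The 11 were Stat2, Ifih1, Eif2ak2, Ifit1, Ifit3, Oas1a, Oas3, Trim30a, Rsad2, Slfn5 and Bst2. The letters TTCNNNGAA of the gamma-activated site were found in 7 of the 28 (25%), against 9.55% of all genes with a window. A match of letters is a description of the window and shows no binding. The 6 matching members with the widest range over the arrays are shown 5′ to 3′ on the strand of the gene, with matches in capitals, as the 250 bases before the start or, where the match lies after the start, as 30 bases around it.
Oas3 (chr5:120777660-120777909, minus strand): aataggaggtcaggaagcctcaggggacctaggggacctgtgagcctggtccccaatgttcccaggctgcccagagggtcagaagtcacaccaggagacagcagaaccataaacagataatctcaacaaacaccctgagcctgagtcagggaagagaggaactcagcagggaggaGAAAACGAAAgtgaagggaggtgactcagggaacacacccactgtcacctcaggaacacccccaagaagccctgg
Slfn5 (chr11:82951852-82952101, plus strand): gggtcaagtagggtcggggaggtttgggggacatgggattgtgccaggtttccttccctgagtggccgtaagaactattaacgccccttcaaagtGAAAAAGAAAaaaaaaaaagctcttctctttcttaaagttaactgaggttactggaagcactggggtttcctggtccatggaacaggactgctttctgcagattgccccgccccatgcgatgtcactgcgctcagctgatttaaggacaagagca
Rsad2 (chr12:26456453-26456702, minus strand): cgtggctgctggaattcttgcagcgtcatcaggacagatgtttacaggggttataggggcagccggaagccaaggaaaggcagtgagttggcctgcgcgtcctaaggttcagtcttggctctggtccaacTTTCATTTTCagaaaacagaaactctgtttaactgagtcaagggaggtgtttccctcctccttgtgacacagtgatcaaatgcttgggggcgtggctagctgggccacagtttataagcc
Oas1a (chr5:120907526-120907775, minus strand): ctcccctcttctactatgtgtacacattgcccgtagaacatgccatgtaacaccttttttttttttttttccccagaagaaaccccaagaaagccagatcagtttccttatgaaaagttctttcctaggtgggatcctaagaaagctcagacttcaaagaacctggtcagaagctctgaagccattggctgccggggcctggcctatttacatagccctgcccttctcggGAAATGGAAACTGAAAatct
Eif2ak2 (chr17:78882535-78882564, minus strand): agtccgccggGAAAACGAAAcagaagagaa
Ifit1 (chr19:34640639-34640888, plus strand): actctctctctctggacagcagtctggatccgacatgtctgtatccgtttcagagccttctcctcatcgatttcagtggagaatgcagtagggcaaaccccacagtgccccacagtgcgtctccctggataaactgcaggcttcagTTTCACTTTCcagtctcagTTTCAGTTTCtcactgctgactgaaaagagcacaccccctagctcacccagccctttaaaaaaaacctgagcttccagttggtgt
The match of Oas1a, made of 2 overlapping copies, ended 4 bases before the start, that of Oas3 ended 65 bases before it and that of Eif2ak2 ended 28 bases after it. Ifit1 held 2 separate matches, which ended 94 and 75 bases before its start. In Rsad2 and Ifit1 the element reads on the opposite strand, so the capitals show its complement.

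Values are the deposited log2 expression values, so a difference of 1 is 2-fold, and over all probe sets the array medians were 5.77 to 5.87. Because each group had 1 array, populations were compared by pooling arrays of a like gate (4 CX3CR1hi, 2 CX3CR1int, 2 splenic). The standard errors (SE) and p-values below therefore measure a spread between arrays that also differ in colitis, sex, origin or Ly6C. The summed macrophage markers were 15.26 to 15.49 in the CX3CR1hi arrays, 13.16 to 13.98 in the CX3CR1int arrays and 13.98 in the splenic arrays. Among them Csf1r, the receptor for macrophage growth factor, was 12.18 to 12.25 in the CX3CR1hi arrays and 12.10 to 12.12 in the splenic arrays. It was 11.84 in the CX3CR1int Ly6Chi array and 10.65 in the Ly6Clo array. The summed monocyte markers were 11.63 to 12.23 in CX3CR1hi, 12.91 to 14.51 in CX3CR1int and 14.99 to 15.01 in splenic arrays. The CX3CR1int Ly6Clo array also carried dendritic cell genes (Ccr7 at 11.66, Flt3 at 11.16). The summed markers of conventional dendritic cells were 13.97 in that array and 12.50 in the CX3CR1int Ly6Chi array. They were 11.74 to 11.88 in the CX3CR1hi arrays and 11.17 to 11.47 in the splenic arrays. Some arrays stood apart. The steady-state splenic array, labelled female, carried both Xist (10.04) and Y-linked RNA (Eif2s3y at 10.28). Pancreatic acinar RNA was high in the resident, colitis CX3CR1hi and CX3CR1int Ly6Chi arrays (Cpa1 at 9.59, 9.23 and 9.59, against 4.85 to 5.95 elsewhere). The summed epithelial markers were 14.46 to 15.11 in CX3CR1hi, 13.41 to 13.56 in CX3CR1int and 8.87 to 9.52 in splenic arrays, whereas all 7 measured T and NK cell markers were below the array median in all arrays. Of 8 measured markers of plasmacytoid dendritic cells, a strong source of type I interferon, Pacsin1 was below the median in all arrays and the summed level was 10.16 to 10.68, 10.70 to 10.96 and 9.98 to 10.20 in the same order. Single markers of this sum went different ways. Tcf4 was 9.36 to 10.24 over all arrays. Siglech was highest in the CX3CR1hi arrays (6.72 to 7.63, against 5.64 to 6.04 in CX3CR1int). Cd209d was highest in the CX3CR1int arrays (8.59 and 9.35, against 4.86 to 6.73 elsewhere). The part of these other RNAs in the results was not tested. In such sorted bulk samples, fewer cells of a type and less RNA per cell cannot be told apart.

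Antiviral genes were lower in the CX3CR1hi macrophages than in splenic monocytes and in the CX3CR1int cells of the inflamed colon. The CX3CR1int cells had lower medians than the splenic cells, a step for which few members passed a test. The median over the 38 genes was 10.40 in the steady-state and 10.28 in the colitis splenic array, 9.86 in the CX3CR1int Ly6Chi array and 9.77 in the CX3CR1int Ly6Clo array. It was 9.00 in the colitis CX3CR1hi array and 8.52, 8.66 and 8.68 in the steady-state F4/80hi, resident and reconstituted arrays. The steady-state splenic array held the highest value of 28 members, the CX3CR1int Ly6Chi array of 7, the colitis splenic array of 2 and the reconstituted array of 1, Lgals3bp. The lowest value lay in the F4/80hi array for 15 members, in the reconstituted array for 12, in the resident array for 9, and in each CX3CR1int array for 1.

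**Figure D1:**
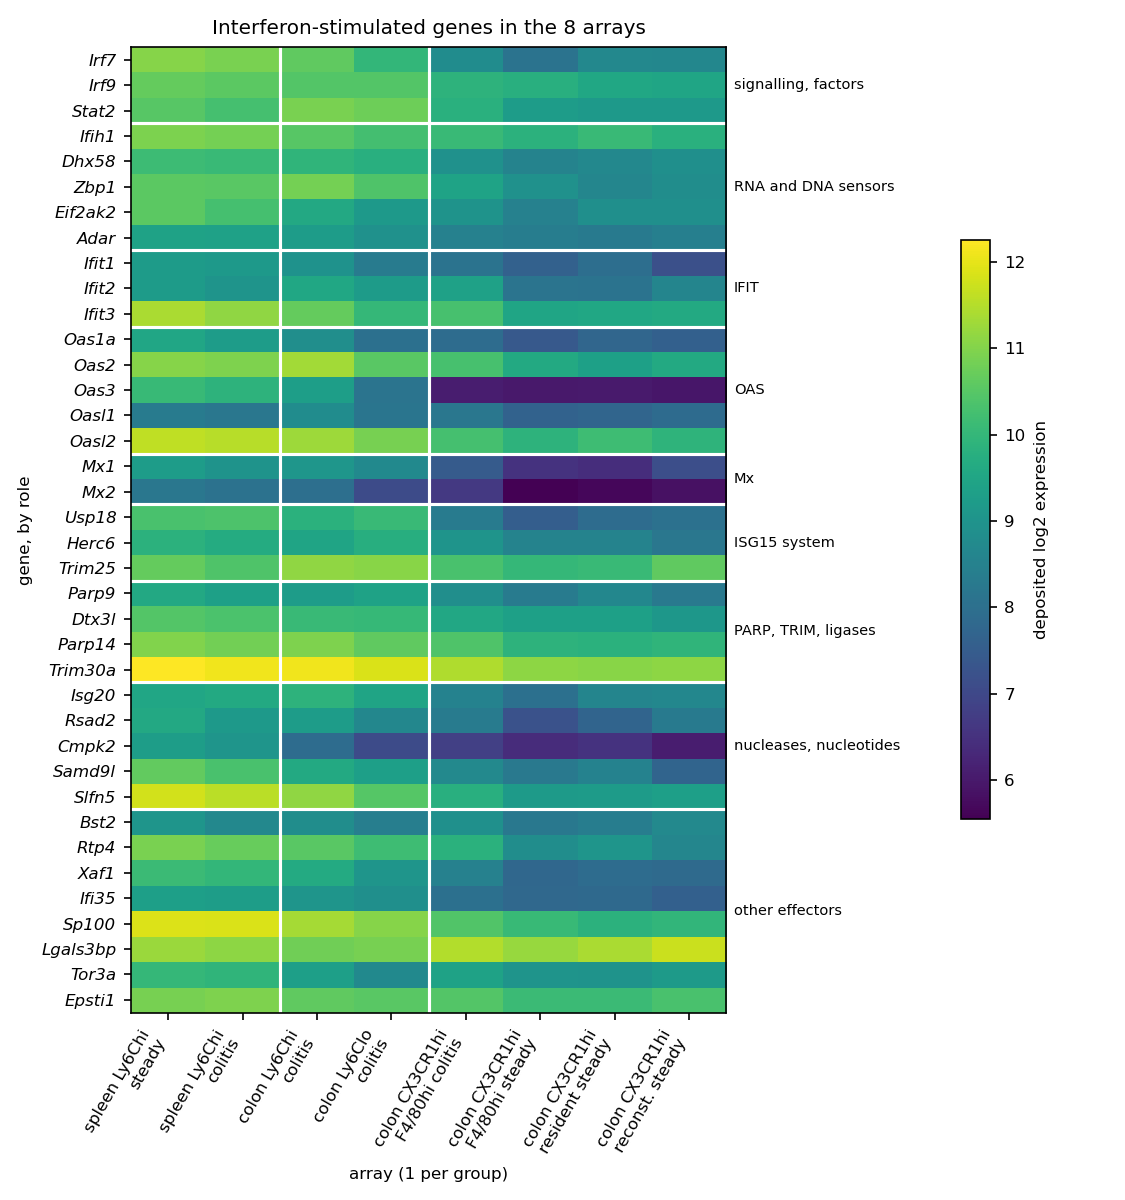
Deposited log2 expression (colour) of the 38 measured genes (rows, grouped by role) in the 8 arrays (columns, 1 per group), with white lines between roles and between splenic, CX3CR1int and CX3CR1hi arrays. Most rows are brightest in the splenic columns and darkest in the CX3CR1hi columns, Oas3, Mx1, Mx2 and Cmpk2 reach the lowest values, and Lgals3bp runs the other way.

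Values of single genes below are given in a fixed order: the steady-state then the colitis splenic array, the CX3CR1int Ly6Chi then the Ly6Clo array, and the CX3CR1hi arrays of colitis F4/80hi, steady-state F4/80hi, resident and reconstituted cells. In the test of CX3CR1hi macrophages against splenic monocytes 33 of 38 members were lower and 0 were higher at an adjusted p of 0.05 or less, by limma's moderated test over 10673 genes with Benjamini-Hochberg adjustment. Of all genes tested, 29% were lower and 22.2% higher. The median difference of the members was -1.42, against -0.12 over all genes. In 34 of the 38 all 4 CX3CR1hi arrays lay below both splenic arrays, which held for 42.8% of all genes. The 5 that did not pass were Ifit2, Oasl1, Bst2, Trim25 and Lgals3bp. Without the steady-state splenic array, whose sex label is in doubt, the median difference was -1.30 against -0.10 over all genes. Oas2, Parp14, Rsad2 and Tor3a lost their call there.

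The same genes stood higher in the CX3CR1int cells than in the CX3CR1hi macrophages. Here 28 members were higher and 1, Lgals3bp, was lower, against 13.3% and 16.6% of all genes tested, and the median difference was 1.02 against 0.01. Both CX3CR1int arrays lay above all 4 CX3CR1hi arrays for 32 members (23.6% of all genes). CX3CR1int cells were sampled only in colitis and 3 of the 4 CX3CR1hi arrays only at steady state, and with colitis as a covariate 11 members stayed higher and 0 lower. Those 11 were Dhx58, Ifi35, Irf7, Isg20, Mx1, Oas3, Slfn5, Sp100, Stat2, Usp18 and Zbp1. Every other member called in this contrast lost its call in that fit. The median difference of the members was then 0.88, against -0.004 over all genes, and the share of all genes called was not counted. Without the CX3CR1int Ly6Chi array, one of those with acinar RNA, the median difference was 0.80 against 0.01 over all genes. Ifit1, Oas1a, Oas2, Mx2, Parp14, Cmpk2, Samd9l, Rtp4 and Lgals3bp lost their call there. Within colitis alone, without a test, both CX3CR1int arrays lay above the colitis CX3CR1hi array for 32 members (33.1% of all genes).

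Against splenic monocytes the CX3CR1int cells differed less. Lower were 7 members (Cmpk2, Oas3, Eif2ak2, Samd9l, Oas1a, Tor3a and Sp100) and 0 were higher, against 14.2% and 10.2% of all genes, a share near the background, and the median difference was -0.35 against -0.08. This count rested on single arrays: it was 0 without the steady-state splenic array, 2 without the colitis splenic array, 3 without the steady-state F4/80hi or the CX3CR1int Ly6Clo array and 14 without the CX3CR1int Ly6Chi array. These population contrasts share their arrays, so they are not independent of each other.

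**Figure D2:**
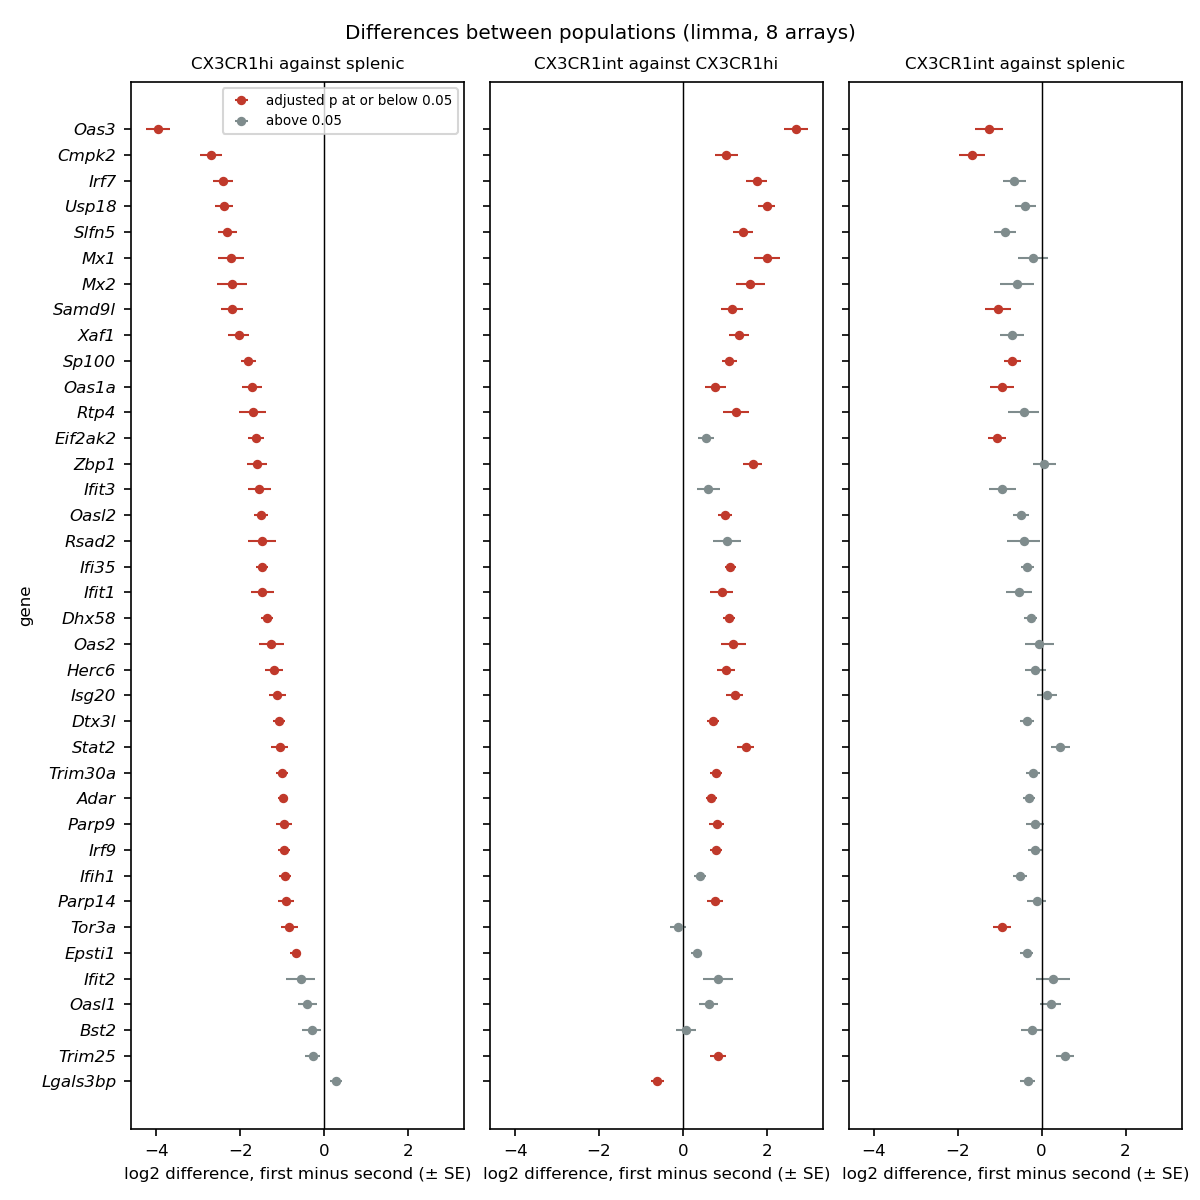
Log2 difference (horizontal axis, first population minus second, with its SE as a bar) of each of the 38 members (rows) for the 3 population contrasts in limma's fit of 8 arrays; red points have an adjusted p of 0.05 or less. In the left panel 33 points are red and below 0, in the middle panel 28 are red and above 0 with Lgals3bp below, and in the right panel 7 are red and below 0.

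The factors that carry the signal were all lowest in the CX3CR1hi arrays, and Irf7 and Irf9, though not Stat2, were highest in the splenic arrays. Irf7, the transcription factor that amplifies interferon production (probe set 10569102), stood at 11.03 and 10.90 in the splenic arrays, 10.63 and 10.00 in the CX3CR1int arrays and 8.81, 8.11, 8.67 and 8.64 in the CX3CR1hi arrays. The 3 populations did not overlap, and within the CX3CR1int pair the Ly6Chi array was the higher. Irf7 was 5.29-fold lower in CX3CR1hi than in splenic cells (log2 difference -2.40 ± 0.24, SE, limma adjusted p = 0.000174) and 3.38-fold higher in CX3CR1int than in CX3CR1hi cells (1.76 ± 0.24, limma adjusted p = 0.00232). Irf9, the DNA-binding subunit of the interferon-activated complex, stood at 10.66 and 10.57 in the splenic arrays, 10.46 and 10.45 in the CX3CR1int arrays and 9.88, 9.78, 9.53 and 9.49 in the CX3CR1hi arrays. Its span was narrower but its populations did not overlap either, and the CX3CR1hi cells were lower than the splenic cells by -0.95 ± 0.14 (limma adjusted p = 0.00113). Stat2, the STAT partner of IRF9, stood at 10.52 and 10.28 in the splenic arrays, 10.91 and 10.77 in the CX3CR1int arrays and 9.79, 9.26, 9.17 and 9.15 in the CX3CR1hi arrays. Both of its CX3CR1int arrays lay above both splenic arrays, although that difference did not pass the test (0.44 ± 0.23, limma adjusted p = 0.194), and the CX3CR1hi arrays were lowest (-1.06 ± 0.20 against splenic, limma adjusted p = 0.00334). All 3 factors were lower in CX3CR1hi than in splenic cells and higher in CX3CR1int than in CX3CR1hi cells, a call that Irf9 lost with colitis as a covariate.

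All 5 sensors of viral or misplaced nucleic acid were lower in CX3CR1hi than in splenic cells, and 3 of the 5 were higher in CX3CR1int than in CX3CR1hi cells. Zbp1, which senses Z-form nucleic acid and can trigger cell death, stood at 10.58 and 10.52 in the splenic arrays, 10.84 and 10.39 in the CX3CR1int arrays and 9.43, 8.94, 8.61 and 8.83 in the CX3CR1hi arrays. The CX3CR1int Ly6Chi array was the highest of all and the CX3CR1hi arrays were clear of the rest (-1.60 ± 0.23 against splenic, limma adjusted p = 0.00104, and 1.66 ± 0.23 for CX3CR1int against CX3CR1hi, limma adjusted p = 0.00261). Eif2ak2, the kinase PKR that halts translation on double-stranded RNA, stood at 10.57 and 10.28 in the splenic arrays, 9.58 and 9.16 in the CX3CR1int arrays and 9.00, 8.50, 8.88 and 8.88 in the CX3CR1hi arrays. Here both CX3CR1int arrays lay above all CX3CR1hi arrays and below both splenic arrays. Ly6Chi stood at 47.5% and Ly6Clo at 21.5% of the log2 distance from the CX3CR1hi to the splenic mean. The difference from CX3CR1hi cells did not pass the threshold (0.56 ± 0.19, limma adjusted p = 0.0589), while that from splenic cells did (-1.06 ± 0.22, limma adjusted p = 0.0128). Dhx58, the RNA helicase LGP2, stood at 10.15 and 10.09 in the splenic arrays, 9.94 and 9.78 in the CX3CR1int arrays and 8.95, 8.55, 8.67 and 8.87 in the CX3CR1hi arrays. Its CX3CR1int arrays lay close under the splenic arrays and well above the CX3CR1hi arrays (1.10 ± 0.14 against CX3CR1hi, limma adjusted p = 0.0019). Ifih1, the double-stranded RNA sensor MDA5, stood at 10.93 and 10.86 in the splenic arrays, 10.51 and 10.24 in the CX3CR1int arrays and 10.08, 9.86, 10.10 and 9.81 in the CX3CR1hi arrays. The CX3CR1hi cells were lower than the splenic cells (-0.93 ± 0.14, limma adjusted p = 0.00117), while the step between CX3CR1int and CX3CR1hi (0.41 ± 0.14) did not pass (limma adjusted p = 0.0597). The remaining sensor-group gene, Adar, which edits adenosines in double-stranded RNA, was -0.98 ± 0.12 in CX3CR1hi against splenic cells (limma adjusted p = 0.000534) and 0.68 ± 0.12 in CX3CR1int against CX3CR1hi cells (limma adjusted p = 0.00726). Adar lost the second call with colitis as a covariate.

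The IFIT proteins bind foreign RNA and keep it from being translated. Ifit1 stood at 9.23 and 9.16 in the splenic arrays, 8.96 and 8.34 in the CX3CR1int arrays and 8.09, 7.62, 7.97 and 7.19 in the CX3CR1hi arrays. Its splenic arrays were highest and all CX3CR1hi arrays lowest (-1.47 ± 0.28, limma adjusted p = 0.00318). Ifit3 stood at 11.41 and 11.15 in the splenic arrays, 10.68 and 10.00 in the CX3CR1int arrays and 10.29, 9.48, 9.54 and 9.62 in the CX3CR1hi arrays. The colitis CX3CR1hi array lay above the CX3CR1int Ly6Clo array, so those populations overlapped, and only the contrast of CX3CR1hi with splenic cells passed (-1.55 ± 0.28, limma adjusted p = 0.00259). Ifit2 stood at 9.22 and 9.01 in the splenic arrays, 9.55 and 9.23 in the CX3CR1int arrays and 9.39, 8.13, 8.10 and 8.60 in the CX3CR1hi arrays. The colitis CX3CR1hi array was the second highest of the 8 while the steady-state resident array was the lowest, and none of the 3 population contrasts passed (limma adjusted p = 0.212, 0.109 and 0.643). Ifit3 has close copies in the mouse genome, so its probe set may read more than 1 gene.

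The oligoadenylate synthetases make the second messenger that switches on RNase L, which cuts RNA. Oas3 (probe set 10533213) had the widest range of all members and stood at 10.07 and 9.88 in the splenic arrays, 9.31 and 8.12 in the CX3CR1int arrays and 6.08, 5.99, 6.03 and 5.95 in the CX3CR1hi arrays. The 4 CX3CR1hi arrays lay within a narrow band near the array median, and the CX3CR1int and splenic arrays formed separate steps above it. Oas3 was 15.6-fold lower in CX3CR1hi than in splenic cells (-3.96 ± 0.28, limma adjusted p = 3.85e-05), 6.51-fold higher in CX3CR1int than in CX3CR1hi cells (2.70 ± 0.28, limma adjusted p = 0.000725) and lower in CX3CR1int than in splenic cells (-1.26 ± 0.33, limma adjusted p = 0.0294). The last call was lost with colitis as a covariate and with sex as a block. Oas1a stood at 9.52 and 9.26 in the splenic arrays, 8.87 and 8.02 in the CX3CR1int arrays and 7.90, 7.41, 7.75 and 7.61 in the CX3CR1hi arrays. Its CX3CR1int Ly6Clo array came close to the CX3CR1hi arrays, and it was -1.72 in CX3CR1hi against splenic cells, 0.77 in CX3CR1int against CX3CR1hi cells and -0.95 in CX3CR1int against splenic cells, all past the threshold, the second and the third only just (limma adjusted p = 0.0485 and 0.0463). Oas2 stood at 11.03 and 10.94 in the splenic arrays, 11.33 and 10.53 in the CX3CR1int arrays and 10.31, 9.63, 9.35 and 9.62 in the CX3CR1hi arrays. Its CX3CR1int Ly6Chi array exceeded both splenic arrays, and the CX3CR1hi arrays were lowest (-1.26 ± 0.30 against splenic, limma adjusted p = 0.00944). Oasl2, an oligoadenylate synthetase-like protein, stood at 11.62 and 11.54 in the splenic arrays, 11.28 and 10.88 in the CX3CR1int arrays and 10.27, 9.89, 10.18 and 9.92 in the CX3CR1hi arrays. It stepped down from splenic to CX3CR1int to CX3CR1hi arrays (-1.51 ± 0.17 for CX3CR1hi against splenic, limma adjusted p = 0.000276). Of the 5 measured genes, Oasl1 alone did not pass in that contrast (-0.40 ± 0.22, limma adjusted p = 0.167). Oas1a and Oas1g are close copies, so reads of the Oas1a probe set may include the other.

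The Mx genes encode dynamin-like GTPases that trap viral particles, and common inbred strains such as C57BL/6 carry defective copies, so the transcript is read here and not an active protein. Mx1 stood at 9.24 and 8.99 in the splenic arrays, 9.07 and 8.74 in the CX3CR1int arrays and 7.47, 6.51, 6.41 and 7.16 in the CX3CR1hi arrays. The CX3CR1int and splenic arrays intermixed, and all lay above the CX3CR1hi arrays (4.67-fold lower in CX3CR1hi than in splenic cells, -2.22 ± 0.31, limma adjusted p = 0.000794). Mx2 stood at 8.20 and 8.07 in the splenic arrays, 8.00 and 7.09 in the CX3CR1int arrays and 6.66, 5.54, 5.67 and 5.85 in the CX3CR1hi arrays. In the steady-state F4/80hi and resident arrays it was below the array median, where dim probe sets can understate a difference, and it differed between CX3CR1hi and splenic cells by -2.20 ± 0.35 (limma adjusted p = 0.00158). Both genes were higher in CX3CR1int than in CX3CR1hi cells, by 2.01 ± 0.31 for Mx1 and 1.61 ± 0.35 for Mx2 (limma adjusted p = 0.00363 and 0.0136). With colitis as a covariate Mx1 stayed higher and Mx2 did not pass.

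Of the ISG15 system, in which a ubiquitin-like tag is put on proteins, Isg15 itself was not measured, but Usp18, Herc6 and Trim25, grouped with it here, were. Usp18, which removes the tag and dampens the receptor, stood at 10.33 and 10.37 in the splenic arrays, 9.83 and 10.10 in the CX3CR1int arrays and 8.33, 7.56, 7.92 and 8.05 in the CX3CR1hi arrays. The CX3CR1int Ly6Clo array was here above the Ly6Chi array, and the CX3CR1hi arrays lay far below all others (5.22-fold lower than splenic cells, -2.38 ± 0.21, limma adjusted p = 9.16e-05, and 3.99-fold lower than CX3CR1int cells, limma adjusted p = 0.000699). Herc6, the main mouse ligase for the tag, stood at 9.86 and 9.67 in the splenic arrays, 9.46 and 9.76 in the CX3CR1int arrays and 9.01, 8.55, 8.55 and 8.19 in the CX3CR1hi arrays. It showed the same reversed order of the CX3CR1int pair, and its CX3CR1hi arrays were lowest (-1.19 ± 0.22 against splenic, limma adjusted p = 0.00298). Trim25, a ligase that acts in RNA sensing, stood at 10.67 and 10.39 in the splenic arrays, 11.13 and 11.06 in the CX3CR1int arrays and 10.33, 10.00, 10.09 and 10.61 in the CX3CR1hi arrays. Both CX3CR1int arrays were above all others, the reconstituted array lay among the splenic arrays, and the one contrast that passed was CX3CR1int against CX3CR1hi (0.84 ± 0.19, limma adjusted p = 0.0142).

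The 4 genes of the PARP, TRIM and ubiquitin ligase group were all lower in CX3CR1hi than in splenic cells, with log2 differences of -0.90 to -1.06, and all higher in CX3CR1int than in CX3CR1hi cells, with differences of 0.71 to 0.81. The latter calls were all lost with colitis as a covariate. Parp9, whose product works bound to that of Dtx3l, stood at 9.60 and 9.36 in the splenic arrays, 9.25 and 9.41 in the CX3CR1int arrays and 8.85, 8.35, 8.64 and 8.26 in the CX3CR1hi arrays. Dtx3l, a ubiquitin ligase, stood at 10.46 and 10.36 in the splenic arrays, 10.09 and 10.03 in the CX3CR1int arrays and 9.57, 9.37, 9.34 and 9.11 in the CX3CR1hi arrays. In both genes the CX3CR1hi arrays were clear of the others. Parp14, an ADP-ribosyl transferase, stood at 10.98 and 10.83 in the splenic arrays, 10.96 and 10.61 in the CX3CR1int arrays and 10.40, 9.88, 9.82 and 9.93 in the CX3CR1hi arrays. Trim30a, a TRIM family regulator of innate signalling, stood at 12.25 and 12.11 in the splenic arrays, 12.10 and 11.86 in the CX3CR1int arrays and 11.44, 11.11, 11.06 and 11.12 in the CX3CR1hi arrays. For both the colitis CX3CR1hi array was the highest of its population. With adjusted p-values of 0.000709 for Dtx3l to 0.00582 for Parp14 by limma, all 4 contrasts of CX3CR1hi with splenic cells passed.

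Among enzymes that act on nucleic acids and nucleotides, all 5 were lower in CX3CR1hi than in splenic cells. Cmpk2, a mitochondrial nucleotide kinase that lies next to Rsad2, stood at 9.27 and 9.05 in the splenic arrays, 7.92 and 7.08 in the CX3CR1int arrays and 6.82, 6.40, 6.53 and 6.09 in the CX3CR1hi arrays. Its CX3CR1int Ly6Clo array was nearer to the CX3CR1hi arrays, at 22.9% of the log2 distance from the CX3CR1hi to the splenic mean. The Ly6Chi array stood about midway, at 54.1%. Cmpk2 was the member lowest in CX3CR1int against splenic cells (-1.66 ± 0.31, limma adjusted p = 0.00901), with CX3CR1hi cells 6.49-fold lower than splenic cells (limma adjusted p = 0.000179). Samd9l, a restriction factor of translation, stood at 10.65 and 10.34 in the splenic arrays, 9.61 and 9.32 in the CX3CR1int arrays and 8.69, 8.27, 8.53 and 7.71 in the CX3CR1hi arrays. The reconstituted array was the lowest, and all 3 contrasts passed (-2.20, 1.17 and -1.03, listed as for Oas1a). The calls of the second and the third were lost with colitis as a covariate and with sex as a block. Slfn5, a Schlafen family member, stood at 11.80 and 11.57 in the splenic arrays, 11.15 and 10.48 in the CX3CR1int arrays and 9.78, 9.19, 9.23 and 9.34 in the CX3CR1hi arrays. It stepped down over the 3 populations (-2.30 ± 0.23 for CX3CR1hi against splenic, limma adjusted p = 0.000192, and 1.43 ± 0.23 for CX3CR1int against CX3CR1hi, limma adjusted p = 0.00477). Rsad2, viperin, which makes a chain-terminating nucleotide, stood at 9.58 and 9.16 in the splenic arrays, 9.24 and 8.64 in the CX3CR1int arrays and 8.33, 7.23, 7.71 and 8.28 in the CX3CR1hi arrays. The CX3CR1hi arrays spread widely and were lower than the splenic arrays (-1.48 ± 0.34, limma adjusted p = 0.00808), and the step from CX3CR1hi to CX3CR1int narrowly missed (1.05 ± 0.34, limma adjusted p = 0.0507). Isg20, an RNA exonuclease, was -1.11 ± 0.20 in CX3CR1hi against splenic cells and 1.23 ± 0.20 in CX3CR1int against CX3CR1hi cells (limma adjusted p = 0.00293 and 0.00503).

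Of 8 other effectors, 6 were lower in CX3CR1hi than in splenic cells. Xaf1, which promotes apoptosis, stood at 10.13 and 9.98 in the splenic arrays, 9.64 and 9.05 in the CX3CR1int arrays and 8.50, 7.79, 7.92 and 7.85 in the CX3CR1hi arrays. The CX3CR1hi arrays lay below all others (4.11-fold lower than splenic, -2.04 ± 0.24, limma adjusted p = 0.000383). Rtp4, an interferon-induced antiviral protein, stood at 10.89 and 10.69 in the splenic arrays, 10.54 and 10.17 in the CX3CR1int arrays and 9.84, 8.83, 9.05 and 8.63 in the CX3CR1hi arrays. The colitis CX3CR1hi array was clear of the other 3 of its population, and all 4 lay below the splenic arrays (-1.70 ± 0.32, limma adjusted p = 0.00309). Sp100, a constituent of nuclear bodies, stood at 11.90 and 11.87 in the splenic arrays, 11.34 and 11.04 in the CX3CR1int arrays and 10.43, 10.06, 9.87 and 9.97 in the CX3CR1hi arrays. Its populations did not overlap and all 3 contrasts passed (-1.81, 1.11 and -0.70). Ifi35 stood at 9.33 and 9.28 in the splenic arrays, 9.04 and 8.88 in the CX3CR1int arrays and 8.02, 7.82, 7.84 and 7.60 in the CX3CR1hi arrays. Its arrays were tightly grouped within each population (-1.48 ± 0.14 for CX3CR1hi against splenic, limma adjusted p = 0.000126, and 1.13 ± 0.14 for CX3CR1int against CX3CR1hi, limma adjusted p = 0.00141).

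Lgals3bp, a secreted glycoprotein that binds galectins, ran against the other members. It stood at 11.23 and 11.11 in the splenic arrays, 10.81 and 10.88 in the CX3CR1int arrays and 11.49, 11.21, 11.40 and 11.72 in the CX3CR1hi arrays. The reconstituted array was the highest and the CX3CR1int arrays the lowest, and CX3CR1int cells were lower than CX3CR1hi cells (-0.61 ± 0.15, limma adjusted p = 0.0219), a call that was lost with sex as a block, with colitis as a covariate and without either CX3CR1int array. Bst2, tetherin, which holds budding virus on the cell, differed little between populations (-0.30 ± 0.23, 0.07 ± 0.23 and -0.23 ± 0.27, none of them past the threshold, with limma adjusted p of 0.308, 0.845 and 0.555). Tor3a was higher in splenic cells than in both colonic populations (-0.83 ± 0.19 for CX3CR1hi and -0.94 ± 0.22 for CX3CR1int, limma adjusted p = 0.00902 and 0.0214). Epsti1 was lower in CX3CR1hi than in splenic cells (-0.68 ± 0.13, limma adjusted p = 0.00387).

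Where the colonic CX3CR1int cells lay between the macrophages and the monocytes was described per gene for the 33 members lower in CX3CR1hi than in splenic cells, as the share of that log2 distance at which each array stood. The CX3CR1int Ly6Chi array stood at a median of 82.0% of the way from CX3CR1hi to splenic cells, from 22.3% for Tor3a to 149% for Stat2. It was at or past 100% for 5 genes (Stat2, Isg20, Oas2, Zbp1 and Parp14) and under 50% for 2 (Eif2ak2 and Tor3a). The Ly6Clo array stood at a median of 53.8%, from -50.3% for Tor3a to 135% for Stat2, with 1 gene past 100% and 10 under 50%. Both CX3CR1int arrays lay between all CX3CR1hi and both splenic arrays for 22 of the 38 members, a pattern that 9.69% of all genes showed. The means rose in the order CX3CR1hi, Ly6Clo, Ly6Chi, splenic for 24 members, against 9.82% of all genes. The 33 were chosen from the contrast that also gives the ends of the scale, so these shares are a description. Both CX3CR1int arrays also carried dendritic cell RNA, most of all Ly6Clo, and whether they form a step between the ends was not tested.

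**Figure D3:**
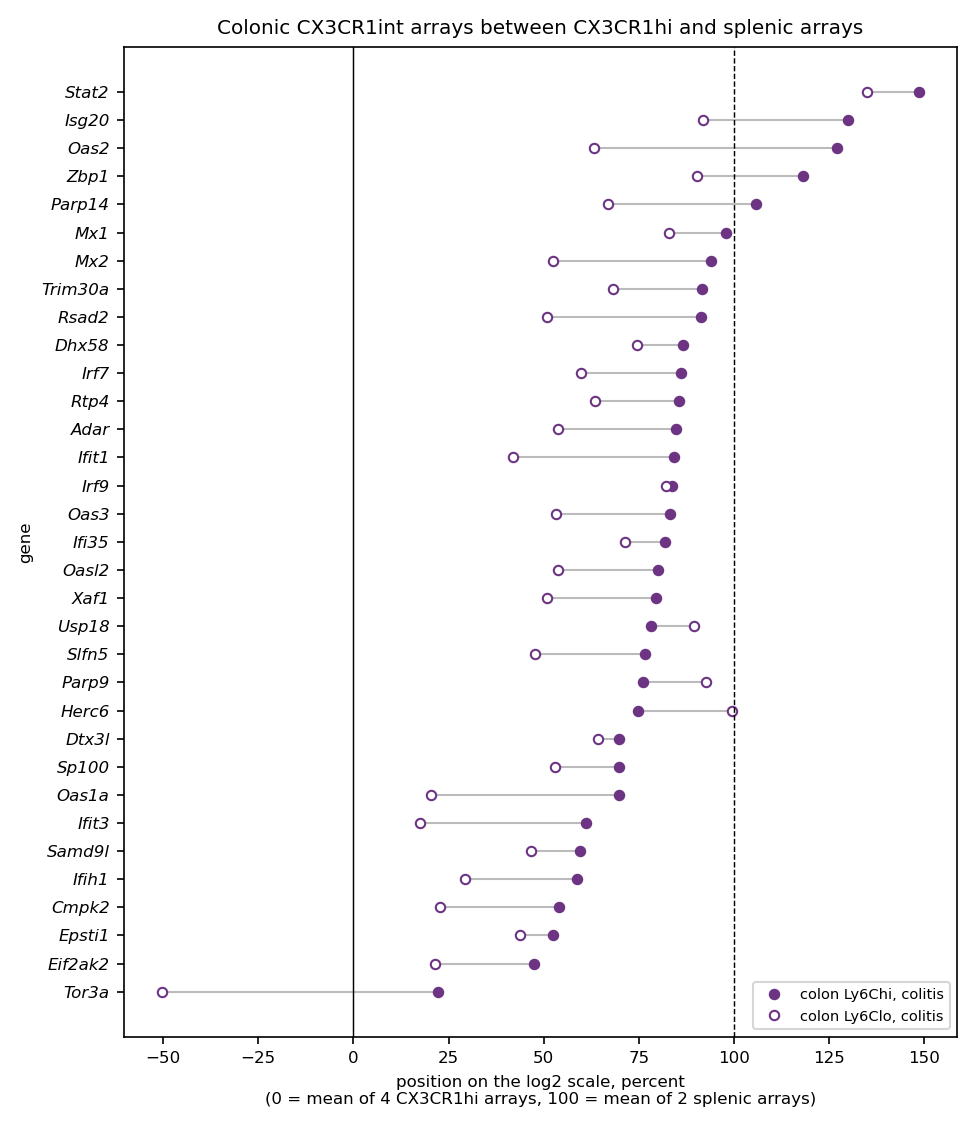
Position of the CX3CR1int Ly6Chi array (filled) and the CX3CR1int Ly6Clo array (open) on the log2 scale, in percent of the distance from the mean of the 4 CX3CR1hi arrays (0) to the mean of the 2 splenic arrays (100), for 33 members (rows). The filled points have a median of 82.0% and the open points of 53.8%, and Stat2 lies past 100% and Tor3a lowest in both.

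Set directly against each other, without a test since each is 1 array, the Ly6Clo array was lower than the Ly6Chi array in 34 of 38 members, with Usp18, Herc6, Parp9 and Lgals3bp as the exceptions. Of all genes past the brightness filter 48.6% were lower by any amount. The median difference of the members was -0.36, against 0.01 over all genes, and 1 member, Oas3, was 2-fold lower (-1.19), as were 5.51% of all genes. Against the colitis splenic array the CX3CR1int Ly6Chi array was 2-fold lower in Cmpk2 alone (-1.13; 3.95% of all genes), with a median of -0.20 against -0.13 over all genes. Relative to that shift the members' median was -0.07 and 15 of 38 were above 0. Against the colitis CX3CR1hi array it was 2-fold higher in 14 members (5.33% of all genes), among them Oas3 (3.23) and Irf7 (1.82), with a median of 0.89 against -0.05.

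Colitis went with somewhat higher antiviral gene levels in the CX3CR1hi macrophages and with slightly lower ones in splenic monocytes, but no member passed a test. The colitis CX3CR1hi array lay above all 3 steady-state CX3CR1hi arrays in 34 of 38 members, with Ifih1, Trim25, Isg20 and Lgals3bp as the exceptions, while 34.2% of all genes did so. With the arrays centred on their medians or quantile normalized again this held for 31 members, and the share of all genes was not counted there. The colitis splenic array lay below the steady-state splenic array in 35 members, all but Usp18, Isg20 and Epsti1, against 52.3% of all genes past the brightness filter. In limma's fit of the 1 colitis against the 3 steady-state CX3CR1hi arrays all 38 differences were above 0, against 56.9% of all genes, with a median of 0.45 against 0.04. None passed after adjustment, and at an unadjusted p under 0.05 there were 7 members and 284 of all genes (2.66%). The size was 1.11 ± 0.28 for Ifit2, 1.00 ± 0.25 for Rtp4 and 0.97 ± 0.37 for Mx2, each with a limma adjusted p of 1.

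A difference shared by both populations was not called for any member by limma (0 of 38, and 0% of all genes, with 0 members and 138 of all genes, 1.29%, at an unadjusted p under 0.05). Of the 38 differences 35 were above 0, against 55.6% of all genes, and the median was 0.19 against 0.02. This direction rested on the colitis CX3CR1hi array: without it 3 of 38 were above 0, with a median of -0.14, and without either splenic array all 38 were, with a median of 0.45. The difference between the colitis effects in the CX3CR1hi and the splenic cells was above 0 in all 38 members, against 55.7% of all genes, with a median of 0.57 against 0.04. After adjustment by limma 0 members passed, and at an unadjusted p under 0.05 there were 3 members and 129 of all genes (1.21%). The tests had 3 or 4 residual degrees of freedom and rest on 1 colitis array in each population, so the number of arrays limits what they can call.

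Between the male F4/80hi arrays all 38 members were higher in colitis, against 67.9% of all genes, with a median of 0.49 against 0.10. With centred arrays 37 were higher, and with repeated quantile normalization 36. The medians were then 0.40 and 0.37, against 0.002 and -0.001 over all genes. Of the 38, 4 members were 2-fold higher, as were 1.23% of all genes: Ifit2 (1.27, 2.41-fold), Mx2 (1.12), Rsad2 (1.11) and Rtp4 (1.01). Relative to the median of all genes 3 members were 2-fold higher, Rtp4 no longer among them. Oas3, whose difference between CX3CR1hi and splenic cells was the largest of the members, had the smallest here (0.09). It stood at 6.08 and 5.99 in these arrays, near their medians of 5.87 and 5.77, where dim probe sets can understate a difference. Against the resident array, which carried a like amount of acinar RNA, 36 of 38 were higher in colitis with a median of 0.36, against 0.002 over all genes. Against the reconstituted array 35 of 38 were higher, with a median of 0.37 against 0.02. Both of these steady-state arrays were labelled female, and the share of all genes higher was not counted for them. In the splenic pair no member was 2-fold apart, against 0.686% of all genes higher and 0.0211% lower, and values ran from -0.42 for Rsad2 to 0.10 for Isg20. The steady-state array of that pair is the one with both Xist and Y-linked RNA. The colitis CX3CR1hi array also had the highest summed markers of its population for monocytes (12.23, against 11.63 to 12.11) and plasmacytoid dendritic cells (10.68, against 10.16 to 10.35). The same held for B and plasma cells (12.93, against 11.49 to 12.43) and stromal cells (11.86, against 10.24 to 11.00). The part of all these cells was not tested. Among the measured monocyte markers Fn1, Vcan and F13a1 were highest in that array and Plac8 was lowest. Ccr2, S100a4, Chil3 and Hp lay within the range of the steady-state CX3CR1hi arrays. For 32 members colitis was above all steady-state arrays in CX3CR1hi and below steady state in splenic cells, as for 18.9% of all genes.

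**Figure D4:**
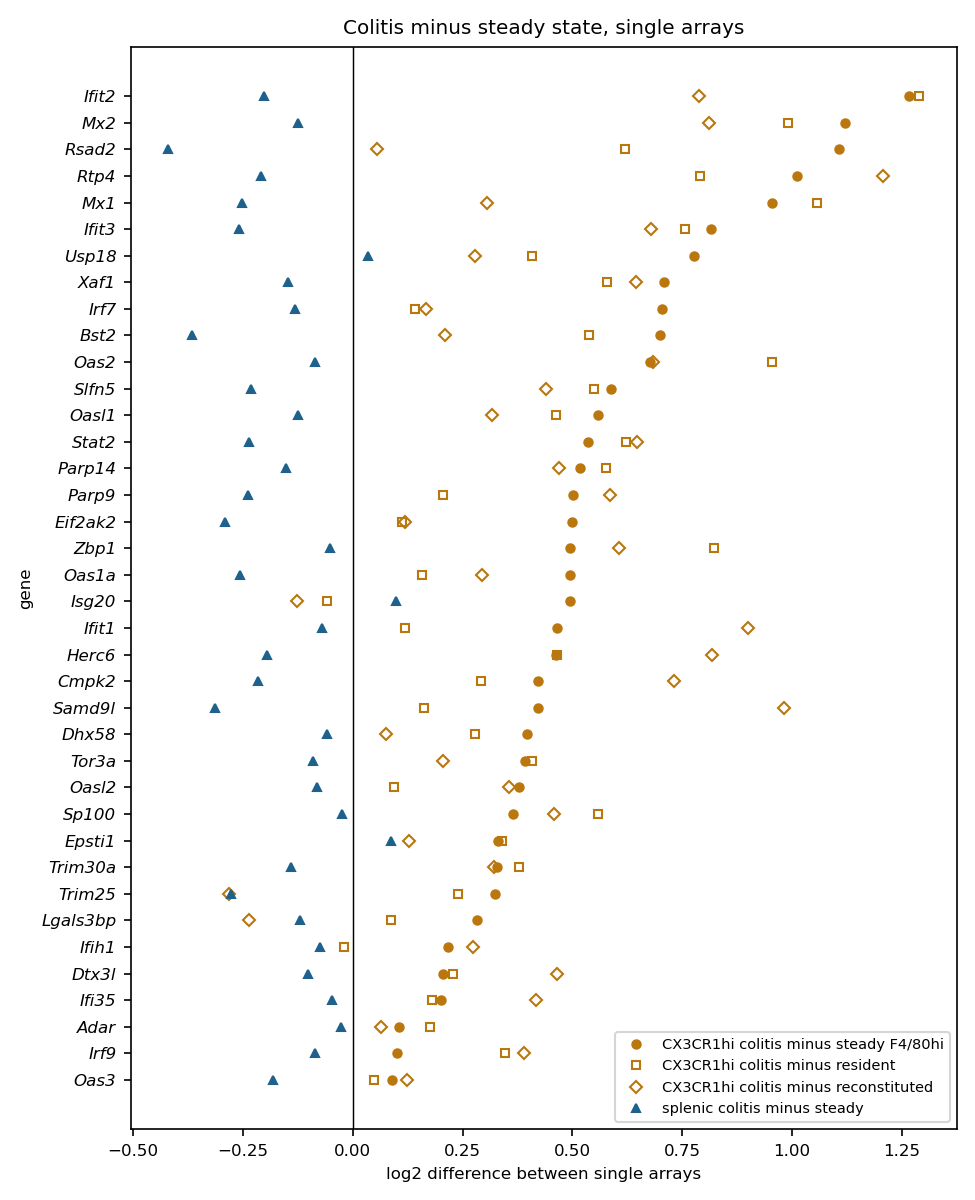
Log2 difference between single arrays (horizontal axis), colitis minus steady state, for each of the 38 members (rows): the colitis CX3CR1hi array against the steady-state F4/80hi (filled circles), resident (squares) and reconstituted (diamonds) arrays, and the colitis against the steady-state splenic array (triangles). All 38 circles lie above 0, topped by Ifit2 at 1.27, while 35 of the triangles lie below 0.

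Among steady-state macrophages the antiviral genes differed little. The reconstituted array was higher than the resident array in 21 of 38 members, against 42.8% of all genes, with a median of 0.07 against -0.04 over all genes, and 0 were 2-fold apart (0.675% of all genes were 2-fold higher and 1.09% lower). Differences ran from -0.82 for Samd9l to 0.75 for Mx1. Of the 37 members past the filter between the steady-state F4/80hi and the resident array, 0 were 2-fold apart (0.279% of all genes higher, 3.36% lower), with a median of -0.08 against -0.11, which became 0.03 after repeated quantile normalization.

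The members varied together over the arrays. Pearson's correlation of a member with the mean of the other members over the 8 arrays had a median of 0.951, and 31 of the 38 were above 0.9, whereas Lgals3bp was at -0.62. This describes 8 arrays in which the populations differ and is no test. Several members are direct neighbours among protein-coding genes. Correlations over the 8 arrays were 0.96 for Dtx3l and Parp9, 0.94 for Parp14 and Dtx3l, 0.91 for Oas2 and Oas3, 0.85 for Rsad2 and Cmpk2, 0.75 for Oasl2 and Oasl1 and 0.70 for Ifit2 and Ifit3. The 11 members with a response element match had a median difference of -1.48 between CX3CR1hi and splenic cells and the 17 with a window and no match one of -1.11, without a test. Between CX3CR1int and CX3CR1hi cells the medians were in the other order, 0.80 with a match and 1.01 without.

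The interferons themselves were near the floor of the arrays. Of 18 named ligand genes 14 were measured, and 11 were below the array median in all arrays. Ifnb1, an interferon made early in infection, stood at 4.65 and 4.64 in the splenic arrays, 4.64 and 5.05 in the CX3CR1int arrays and 4.70, 4.57, 4.56 and 4.99 in the CX3CR1hi arrays. Of the 2 ligand genes bright enough to test, Ifna5 and Ifnl2, 0 passed in any population contrast by limma, and 1 had an unadjusted p under 0.05, in CX3CR1int against splenic cells.

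The receptor was present throughout. Ifnar1 stood at 10.35 and 10.23 in the splenic arrays, 10.56 and 10.50 in the CX3CR1int arrays and 10.62, 10.69, 10.58 and 10.75 in the CX3CR1hi arrays, and Ifnar2 at 11.69 and 11.58 in the splenic arrays, 11.61 and 11.19 in the CX3CR1int arrays and 11.54, 11.44, 11.33 and 11.21 in the CX3CR1hi arrays. Ifnar1 was slightly higher in CX3CR1hi than in splenic cells (0.36 ± 0.11, limma adjusted p = 0.0238), against the direction of the antiviral genes, and Ifnar2 did not pass (-0.25 ± 0.15, limma adjusted p = 0.202). Of 8 tested receptor and kinase genes, 2 were higher and 3 lower in that contrast, shares near the 22.2% and 29% of all genes, and 3 were higher and 1 lower in CX3CR1int against CX3CR1hi cells, against 13.3% and 16.6%. Tyk2, the kinase bound to the first receptor chain, was lower in CX3CR1hi than in splenic cells (-0.94 ± 0.16, limma adjusted p = 0.00222). Jak2, a kinase of the interferon gamma receptor, was highest in CX3CR1int cells (1.96 ± 0.20 against CX3CR1hi, limma adjusted p = 0.00068). Il10rb, shared by the interferon lambda and interleukin-10 receptors, was higher in CX3CR1hi than in splenic cells (0.69 ± 0.14, limma adjusted p = 0.00458).

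Of 18 measured sensors and adaptors upstream of interferon, 1 was higher and 7 lower in CX3CR1hi than in splenic cells, against 22.2% and 29% of all genes. In CX3CR1int against CX3CR1hi cells 6 were higher and 3 lower, against 13.3% and 16.6%. In CX3CR1int against splenic cells 1 was higher and 2 lower, which is no more than the 10.2% and 14.2% of all genes. The genes with the widest range were the Toll-like receptors Tlr7, Tlr8 and Tlr4. Tlr7, a receptor for single-stranded RNA, stood at 12.37 and 12.29 in the splenic arrays, 10.43 and 7.19 in the CX3CR1int arrays and 11.31, 11.09, 11.10 and 10.91 in the CX3CR1hi arrays. The Ly6Clo array was far below the other 7, and CX3CR1int cells were lower than CX3CR1hi cells (-2.29 ± 0.73, limma adjusted p = 0.0484) and than splenic cells (-3.51 ± 0.84, limma adjusted p = 0.0218). Tlr8 at 8.14 and Tlr4 at 7.35 were also lowest in the Ly6Clo array, though neither passed in any population contrast (limma adjusted p of 0.0997 or more for Tlr8 and 0.151 or more for Tlr4).

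Of 13 tested negative regulators, 2 were higher and 6 lower in CX3CR1hi than in splenic cells, against 22.2% and 29% of all genes. In CX3CR1int against CX3CR1hi cells 7 were higher and 0 lower, against 13.3% and 16.6%. Socs3, an inhibitor of cytokine receptors, stood at 7.91 and 9.11 in the splenic arrays, 11.06 and 9.85 in the CX3CR1int arrays and 10.74, 10.68, 10.58 and 10.66 in the CX3CR1hi arrays. It was lowest in the splenic arrays (2.15 ± 0.39 for CX3CR1hi against splenic, limma adjusted p = 0.00275), as was the related Cish (1.43 ± 0.19, limma adjusted p = 0.00069). Trex1, a nuclease that removes stray DNA, followed the antiviral genes instead (-1.52 ± 0.17, limma adjusted p = 0.000318).

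Of 9 tested genes known mainly as induced by interferon gamma, 5 were higher and 1 lower in CX3CR1hi than in splenic cells, against 22.2% and 29% of all genes. In CX3CR1int against splenic cells 7 were higher and 0 lower, against 10.2% and 14.2%. The difference from the type I members was not tested. Iigp1, a GTPase active against intracellular parasites, stood at 5.67 and 5.48 in the splenic arrays, 8.20 and 8.89 in the CX3CR1int arrays and 9.60, 7.89, 8.21 and 6.71 in the CX3CR1hi arrays. It was at its highest in the colitis CX3CR1hi array and lowest in the splenic pair. Cd274, the immune checkpoint ligand, and Cxcl9, a T cell chemokine, were also higher in CX3CR1hi than in splenic cells (2.26 ± 0.19 and 1.88 ± 0.33, limma adjusted p = 7.01e-05 and 0.00228). Irgm1, an immunity-related GTPase named here after its values were seen, was the one that was lower (-1.29 ± 0.32, limma adjusted p = 0.0115).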

How the data were processed

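RNA of FACS-sorted colonic and splenic cells was hybridised to 8 Affymetrix arrays, 1 per group. The deposited values are log2 expression per probe set (3.37 to 14.31). RMA and Partek are named by the submitters' processing notes, with versions not given in the sources used here, and the log2 base was read from the values. RMA brings arrays to a common distribution, so a shift shared by most genes is not seen.

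Of 35399 probe sets, 21789 had 1 gene symbol in the platform annotation, 1621 had several and 11989 had none. The probe set of highest mean stood for each of 19938 genes. RefSeq entries were found for 21698 probe sets by Entrez identifier, and 0 symbols changed. The 10673 genes that reached the median of 2 or more arrays were fitted in R 4.3.3 by the functions lmFit and eBayes of limma 3.58.1, with Benjamini-Hochberg adjustment over all genes tested, a threshold of 0.05 and population as the group and 5 residual degrees of freedom. Colitis was fitted as a further term, and its interaction with population in a further fit (4 and 3 degrees of freedom). Replicates are arrays of a population, not separate samples of 1 group, so p-values measure only the spread between these arrays. Where 1 array stood for a colitis group, its spread was assumed to be that of the others. Single arrays were compared by a 2-fold difference, without a test, for genes at or above the median in the brighter array. The precision is limited by the number of arrays.

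The scripts were tested on simulated data. The members are described by role, with all 8 values for up to 4 of a role with the largest range and for any member called against the rest, and in each pathway list up to 3 genes of largest range, Ifnar1, Ifnar2 and Ifnb1. The members, roles and pathway lists were chosen with earlier results of these data known. Alternatives changed the filter, the probe set rule, the normalization, the prior, the covariates, the fold and the arrays used. Some other members of the pathway are not reported here. Promoter windows were RefSeq's (GRCm38.p6). Tables were handled with Python 3.11.15, pandas 2.3.3 and numpy 2.4.6, and figures with matplotlib 3.10.9.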

Additional observations from a re-analysis of the deposited data

Results flagged for a closer look

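Among the 4 CX3CR1hi arrays, 2 of the 38 members had 1 array far from the other 3, by a gap that took a larger part of the group's range than Dixon's critical value allows. Ifit3 was at 10.295 in the colitis F4/80hi array, with the gap to the next array at 0.832 of the range, and Trim30a at 11.44 in the same array, with the gap at 0.848. Chance alone marks about 1 group in 20 in this way. The 4 arrays differ in colitis, sex and origin, so they are not replicates of 1 condition.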

How the results depend on the processing

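No paired analysis was possible because each group has 1 array and the labels carry no replicate numbers. Leaving out each array in turn gave 29 to 34 members lower in CX3CR1hi against splenic cells, and in CX3CR1int against CX3CR1hi cells 20 to 31 higher and 0 to 1 lower. In CX3CR1int against splenic cells it gave 0 to 14 lower. With colitis as a covariate, CX3CR1int against CX3CR1hi gave 11 higher and 0 lower, and with labelled sex as a block 0 lower. The 7 members lower in CX3CR1int against splenic cells became 4 without the filter, 11 with centred arrays, 4 with sex as a block, 4 with colitis as a covariate and 0 with only those populations in the fit. For single arrays, colitis against steady state in F4/80hi gave 2 members 2-fold higher after repeated quantile normalization, 2 against the resident and 1 against the reconstituted array. At 1.5-fold it gave 12. Reconstituted against resident gave 1 higher and 2 lower at 1.5-fold, and 1 higher at 2-fold against the steady-state F4/80hi array. At 1.5-fold, Ly6Clo was lower than Ly6Chi in 13, Ly6Chi against colitis splenic cells was higher in 3 and lower in 4 (2 lower at 2-fold against the steady-state splenic array), and Ly6Chi against colitis CX3CR1hi was higher in 27 and lower in 1. The cause of these moves was not tested, apart from the fold, which sets the count by construction. The share of all genes was not counted under these alternatives, so the counts only describe how far the calls moved. Other counts of calls stayed within 1.5 times of those given, and no called value changed sign. Without a call, the median of the colitis difference shared by both populations turned from 0.19 to -0.14 without the colitis CX3CR1hi array, and that of steady-state F4/80hi against resident cells from -0.08 to 0.03 after repeated quantile normalization. The colitis tests called 0 members under every alternative run. Each called gene was counted once per alternative run, so a gene enters many times. For CX3CR1hi against splenic 554 such calls were kept and 6 were lost. These numbers were 436 and 56 for CX3CR1int against CX3CR1hi, and 77 and 42 for CX3CR1int against splenic cells. The alternatives for the difference of the colitis effects and for the CX3CR1hi arrays alone were chosen after seeing the data.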
